A study of Mus musculus with 6 samples.

Results

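The TNF receptor superfamily genes described here are 10 receptors of the death, costimulatory and lymphotoxin kinds, namely Tnfrsf1a, Tnfrsf1b, Tnfrsf4, Tnfrsf9, Tnfrsf11a, Tnfrsf14, Tnfrsf18, Tnfrsf25, Ltbr and Fas. They were taken by gene symbol, and the platform annotation gave them 14 probe sets of the 45037 tested, or 10 of 18193 genes. The list was selected on the measured genotype differences of Tcf1-/- and Tcf1-/+ arrays and on levels against background. RNA of early thymic progenitors (ETP), the earliest T-lineage cells found in the thymus, was hybridized to Affymetrix mouse genome arrays. The cells came from C57Bl/6 mice killed at 10 weeks of age and were sorted as Lin-CD44+CD25-kit+. There were 3 arrays of Tcf1-/- and 3 of Tcf1-/+ progenitors. Tcf1 is a TCF/LEF family transcription factor that can pair with beta-catenin and acts early in T-cell development. The labels give neither the allele nor the cells in which Tcf1 was ablated, nor the number of animals behind each array. Sample titles call the control Tcf1-/+, while another label field calls the same animals wild type. The labels thus disagree on the control genotype, and the titles are followed here.

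Receptors of this superfamily are bound by ligands of the TNF family, most of which are trimers on the surface of other cells. Receptors with a cytoplasmic death domain can recruit the adaptors TRADD or FADD and lead to NF-kB activation or to caspase-driven death. The others bind TRAF adaptors directly and signal to NF-kB and kinase pathways. On lymphoid cells they are known as costimulatory receptors of activated and regulatory T cells and of innate lymphoid cells, and the lymphotoxin beta receptor and RANK are known for lymphoid organ and thymic epithelial development.

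Values are log2 levels per probe set as deposited. The 95th percentile of 27 control probe sets for bacterial transcripts, 5.21, was taken as background, and a difference that involves a mean under that level has no well-measured size. Levels of different probe sets are not comparable with each other. Where a gene has several probe sets, the one with the highest 6-array mean represents it. Differences are Tcf1-/- minus Tcf1-/+ means on the log2 scale with standard errors (SE) from limma. The receptors were chosen with this genotype contrast already known, so their differences are a description. Tcf1-/- replicate 2 stood apart, with correlations of 0.870 to 0.893 to the other 5 arrays, against 0.913 to 0.933 among those. Y-linked genes were high on Tcf1-/- replicates 2 and 3 and on Tcf1-/+ replicate 2 and low on the other 3 arrays. Kit, a marker of the sort gate, was at 9.99, 7.45 and 9.60 on the Tcf1-/- arrays, against 10.80, 10.50 and 9.83 on the Tcf1-/+ arrays, so it was lowest on that same array. Cd44 was above background on all arrays. Il2ra, which encodes CD25, was also above it, at 9.32 to 10.97 in Tcf1-/- and 9.22 to 10.17 in Tcf1-/+, although the gate selected CD25-negative cells. In sorted populations, fewer cells of a kind and less RNA per cell cannot be told apart.

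One receptor, Tnfrsf25, had a large genotype difference, and the other 9 lay close together or varied between arrays of 1 genotype. Tnfrsf25 was near or under background on the Tcf1-/+ arrays and clearly above it on all 3 Tcf1-/- arrays. Tnfrsf9 had a lower and Tnfrsf18 a higher Tcf1-/- mean, with overlap between genotypes in both. Of the 10 receptors, 6 had a higher and 4 a lower Tcf1-/- mean, with a median difference of 0.09, beside a median of 0.04 over all genes. The genotypes did not overlap for 1 of the 10, where they did not overlap for 12.2% of all genes. At limma's adjusted p (Benjamini-Hochberg over all probe sets) under 0.05, 0 of the 10 were called, as were 0% of all probe sets. At an unadjusted p under 0.05 there were 2 of the 10, beside 6.78% of all genes. Nothing is read from these counts, since the contrast was known when the receptors were chosen.

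**Figure D1:**
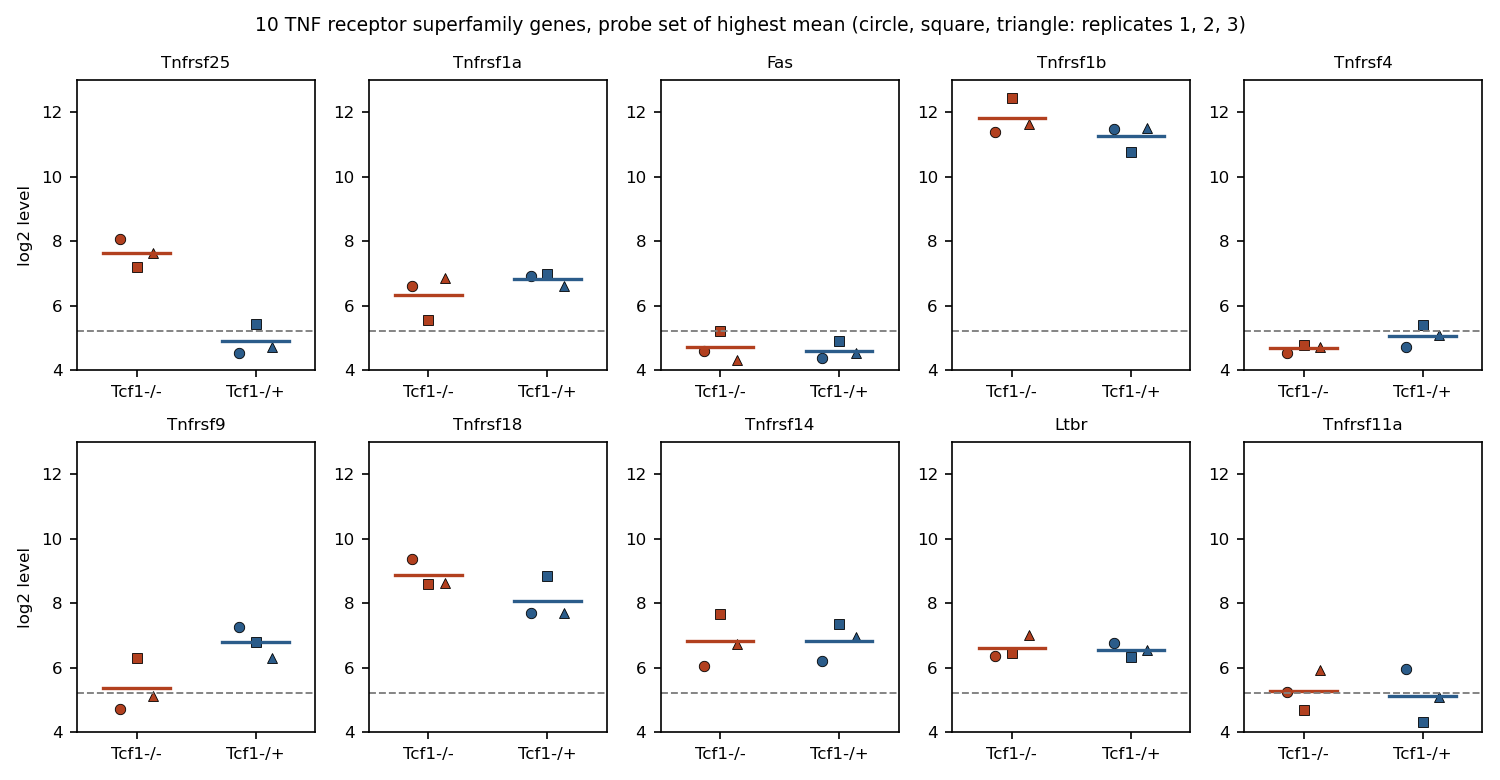
Log2 level of the 10 receptors on each array (y axis), with Tcf1-/- at the left and Tcf1-/+ at the right of each panel. Points are the 3 arrays of a genotype, short lines their mean, and the dashed line the background level of 5.21. Tnfrsf25 is above 7 on every Tcf1-/- array and at most 5.44 on the Tcf1-/+ arrays, while the points of the other receptors overlap or touch between genotypes.

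Tnfrsf25 encodes death receptor DR3, a receptor with a death domain that binds the ligand TL1A and costimulates T cells and innate lymphoid cells. It was at 8.06, 7.19 and 7.63 on the Tcf1-/- arrays, against 4.54, 5.44 and 4.71 on the Tcf1-/+ arrays. All 3 Tcf1-/- arrays lay above all 3 Tcf1-/+ arrays, and 1 Tcf1-/+ array was above background. The means were 7.63 ± 0.44 in Tcf1-/- and 4.90 ± 0.48 in Tcf1-/+ (SD, n = 3 each), a difference of 2.73 (SE 0.35). With values under background set to it, the difference was 2.34, which lets the Tcf1-/+ level count as no lower than background. Leaving out each array in turn gave differences between 2.51 and 3.00, and the Y-linked level as a covariate gave 2.65. The gene has 1 probe set here, so no second probe set bears on the difference, and its ligand gene Tnfsf15 was not analysed here.

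Tnfrsf25 lies on chromosome 4 with 5 others of the 10 receptors, in the order Tnfrsf1b, Tnfrsf9, Tnfrsf25, Tnfrsf14, Tnfrsf4 and Tnfrsf18 in the RefSeq annotation of GRCm38.p6. Tnfrsf4 and Tnfrsf18 are next to each other, with 0 protein-coding genes between them. The genes around Tnfrsf25, taken by position alone, had smaller differences. So had nearly all genes, since 0.319% of them had a difference at least as large as that of Tnfrsf25. Its neighbours Plekhg5 and Espn differed by 0.00 (SE 0.36) and 0.17 (SE 0.47). Of the 8 nearest protein-coding genes, 4 on each side, the furthest from 0 was Zbtb48 at -1.28 (SE 0.46), with the Tcf1-/- arrays below the Tcf1-/+ arrays. Acot7 differed by 0.63 (SE 0.27), with the Tcf1-/- arrays above.

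The bases before the start of Tnfrsf25 and Tnfrsf9 are shown because these receptors had the largest differences of either sign and because Tcf1 is a sequence-specific factor. RefSeq (GRCm38.p6) places a pair of starts at Tnfrsf25, and the 250 bases before each are given, at chr4:152115684-152115933 and chr4:152116093-152116342, with those before the first start of Tnfrsf9 at chr4:150919905-150920154, all on the + strand and written 5′ to 3′. Capitals mark a match to CAAAG preceded by 2 bases that are each A or T, the core that TCF and LEF factors are known to bind, searched on both strands. No matches overlap in these windows.
Tnfrsf25, first start: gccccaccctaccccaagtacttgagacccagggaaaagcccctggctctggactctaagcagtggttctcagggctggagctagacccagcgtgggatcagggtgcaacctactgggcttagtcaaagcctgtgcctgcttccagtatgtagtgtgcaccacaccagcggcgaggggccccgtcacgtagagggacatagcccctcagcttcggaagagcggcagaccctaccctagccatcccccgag
Tnfrsf25, second start: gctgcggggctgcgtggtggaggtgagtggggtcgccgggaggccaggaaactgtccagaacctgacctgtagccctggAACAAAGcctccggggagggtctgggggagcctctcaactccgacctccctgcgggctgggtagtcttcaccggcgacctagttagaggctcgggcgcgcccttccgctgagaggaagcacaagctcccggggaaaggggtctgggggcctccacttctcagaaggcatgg
Tnfrsf9, first start: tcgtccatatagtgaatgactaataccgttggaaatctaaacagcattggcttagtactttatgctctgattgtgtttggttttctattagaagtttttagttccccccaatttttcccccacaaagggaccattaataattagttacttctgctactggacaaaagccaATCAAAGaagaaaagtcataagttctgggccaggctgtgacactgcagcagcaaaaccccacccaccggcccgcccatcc
The window of the second start of Tnfrsf25 holds 1 match, 171 bases before that start, and that of the first start 0. The window of the first start of Tnfrsf9 holds 1 match, 80 bases before that start, and that of its second start, at chr4:150927749-150927998 and not printed, holds 0. All 10 receptors were found in the promoter table, and 4 of them (Tnfrsf1a, Tnfrsf9, Tnfrsf25 and Fas) had a match in a window of this length, beside 16.8% of 27025 genes. By window it was 4 of 12, beside 14.8% of 32851. These are matches of letters, and binding was not measured.

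Of the other receptors with a death domain, Tnfrsf1a did not separate the genotypes, and Fas was too near background to tell. Tnfrsf1a, the main receptor for soluble TNF on most cells, was at 6.62, 5.54 and 6.85 on the Tcf1-/- arrays, against 6.92, 6.97 and 6.61 on the Tcf1-/+ arrays. Replicate 2 of Tcf1-/- was the low one and the genotypes overlapped, with a difference of -0.50 (SE 0.38) that was -0.10 without that array. Fas, which triggers apoptosis on binding Fas ligand, was at 4.61, 5.23 and 4.33 in Tcf1-/-, against 4.39, 4.89 and 4.54 in Tcf1-/+. Its means were both below the background level, which leaves the difference of Fas unmeasured. For both genes 1 probe set was measured.

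Among the receptors that act through TRAF adaptors, Tnfrsf9 stood lowest in Tcf1-/- relative to Tcf1-/+. Tnfrsf9 encodes CD137, a costimulatory receptor induced on activated T and NK cells. On its probe set of highest mean it was at 4.72, 6.29 and 5.14 on the Tcf1-/- arrays, against 7.28, 6.80 and 6.29 on the Tcf1-/+ arrays. Replicate 2 of Tcf1-/- and replicate 3 of Tcf1-/+ were at the same level to the second decimal, and the other Tcf1-/- arrays lay under background. The means were 5.38 ± 0.81 in Tcf1-/- and 6.79 ± 0.50 in Tcf1-/+ (SD, n = 3 each), a difference of -1.41 (SE 0.48). Leaving out each array in turn gave -1.86 to -1.08. A second probe set of Tnfrsf9 differed by -1.25 (SE 0.59) but ordered the Tcf1-/+ arrays otherwise, at 4.70, 6.74 and 6.50, against 4.31, 5.21 and 4.67 in Tcf1-/-. Replicate 1 of Tcf1-/+ was thus the highest of its genotype on one probe set and the lowest on the other. The Tcf1-/- mean of the second probe set, 4.73, was under background, so its difference has no well-measured size. The remaining probe set was under background on all 6 arrays.

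Tnfrsf18 encodes GITR, a receptor known from regulatory T cells and also carried by activated T cells and innate lymphoid cells. It was at 9.38, 8.60 and 8.63 on the Tcf1-/- arrays, against 7.70, 8.85 and 7.71 on the Tcf1-/+ arrays. Only replicate 2 of Tcf1-/+ reached the Tcf1-/- levels, and lay above 2 of them. The difference was 0.78 (SE 0.41). It lay between 0.52 and 1.16 with each array left out in turn, and was highest without that Tcf1-/+ array. Tnfrsf4, which encodes the T-cell costimulatory receptor OX40 and is the next gene to Tnfrsf18, was at 4.52, 4.77 and 4.72 in Tcf1-/-, against 4.72, 5.40 and 5.08 in Tcf1-/+. Both of its means lay under background, and 1 array, of Tcf1-/+, was above it, so its size of difference is not given.

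Tnfrsf1b, the second TNF receptor, lacks a death domain and is found mainly on immune cells. It was at 11.40, 12.43 and 11.64 on the Tcf1-/- arrays, against 11.50, 10.77 and 11.50 on the Tcf1-/+ arrays. Replicate 2 was the highest array of Tcf1-/- and replicate 2 the lowest of Tcf1-/+, and the genotypes overlapped. The difference was 0.57 (SE 0.36). It was 0.26 without replicate 2 of Tcf1-/- and 0.33 without replicate 2 of Tcf1-/+. Its other probe set gave -0.33 (SE 0.33), so the probe sets of Tnfrsf1b disagreed in sign.

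The receptors of the lymphotoxin system did not separate the genotypes. Ltbr, the lymphotoxin beta receptor, was at 6.37, 6.47 and 7.03 on the Tcf1-/- arrays, against 6.78, 6.33 and 6.55 on the Tcf1-/+ arrays, a difference of 0.07 (SE 0.26). Tnfrsf14, which encodes HVEM, the receptor shared by LIGHT and the inhibitory receptor BTLA, was at 6.06, 7.68 and 6.75 in Tcf1-/-, against 6.20, 7.35 and 6.95 in Tcf1-/+. In both genotypes replicate 2 was highest and replicate 1 lowest, and the difference was 0.00 (SE 0.50) when rounded. These standard errors leave room for differences of either sign. Tnfrsf11a, which encodes RANK, was around background, at 5.24, 4.70 and 5.94 in Tcf1-/-, against 5.96, 4.32 and 5.11 in Tcf1-/+, with 3 of the 6 arrays above it. Its other probe set was under background on all arrays. There the Tcf1-/- arrays, at 4.46, 4.01 and 3.93, lay above the Tcf1-/+ arrays, at 3.80, 3.78 and 3.90, which gives no measured size.

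**Figure D2:**
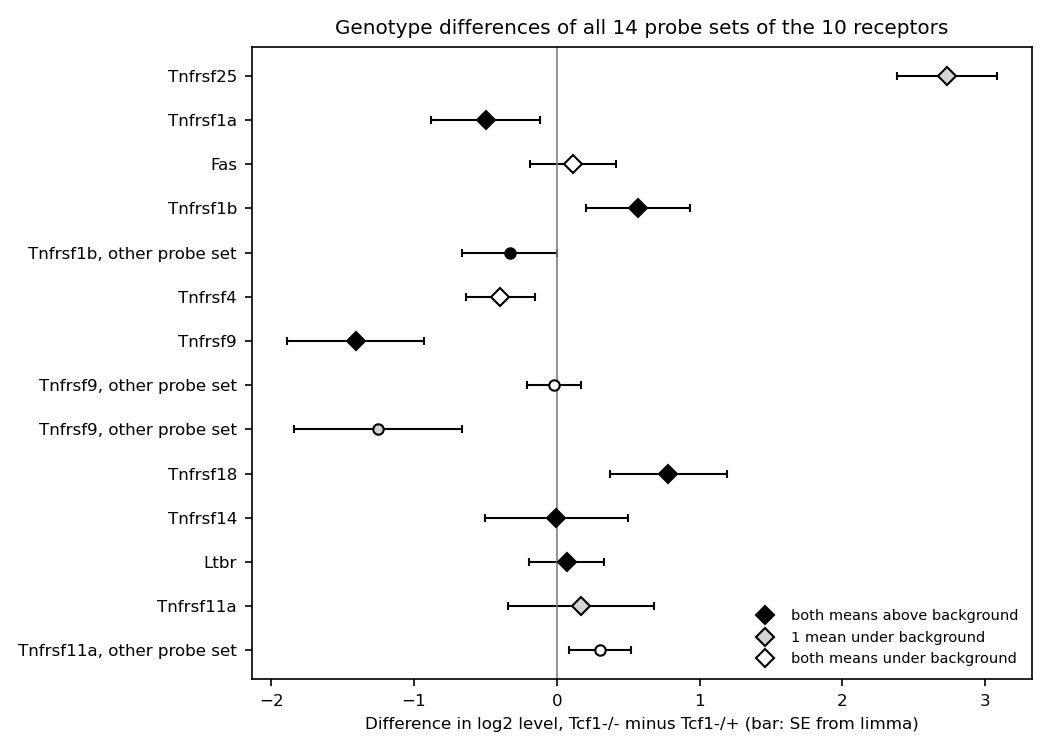
Difference in log2 level, Tcf1-/- minus Tcf1-/+ (x axis), for all 14 probe sets of the 10 receptors (rows), with bars of 1 SE from limma. Diamonds are the probe sets that represent a gene and circles its other probe sets, and the fill shows whether the means lie above background. Tnfrsf25 is at 2.73, the 2 probe sets of Tnfrsf9 with a mean above background are at -1.41 and -1.25, and the probe sets of Tnfrsf1b are on either side of 0.

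Across the 10 receptors, both means lay above background for 6, 1 mean for 2 (Tnfrsf25 and Tnfrsf11a) and neither for 2 (Tnfrsf4 and Fas). Both means were above it for 66.6% of all genes and both under it for 27.7%. Among the members closest to that level, Tnfrsf11a had means of 5.30 in Tcf1-/- and 5.13 in Tcf1-/+, and Tnfrsf4 had means of 4.67 in Tcf1-/- and 5.07 in Tcf1-/+.

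Ligands of the superfamily were read from a list of 17 genes, of which 13 had a probe set with 1 symbol. The list includes ligands of receptors outside the 10, among them Cd40lg, Cd70, Tnfsf8, Tnfsf10 and Tnfsf13b. Of the 13, 11 had a higher and 2 a lower Tcf1-/- mean, with a median difference of 0.37. Over all genes, 9881 of 18193 had a higher Tcf1-/- mean, with a median difference of 0.04. limma called 0 of the 13 at the adjusted threshold, as it did 0% of all probe sets. At an unadjusted p under 0.05 there were 3, all higher in Tcf1-/-, beside 3.38% of all genes with that sign. Genotypes did not overlap for 4 (Tnfsf14, Lta, Fasl and Cd40lg), all with Tcf1-/- above, beside 7.22% of all genes. For the 8 known to bind 1 or more of the 10 receptors, 7 had a higher and 1 a lower Tcf1-/- mean, with a median difference of 0.57. These counts use the probe set of highest mean. Some of the 8 had a mean under background, and the other probe set of Fasl, above background, had the opposite sign. Tnfsf14 encodes LIGHT, the ligand of Tnfrsf14 and Ltbr. It was at 9.04, 10.64 and 9.11 on the Tcf1-/- arrays, against 7.31, 8.26 and 6.41 on the Tcf1-/+ arrays. All Tcf1-/- arrays were the higher ones, with a difference of 2.27 (SE 0.63), while its dimmer probe set gave 0.27 (SE 0.43) with overlap. Lta encodes lymphotoxin alpha, which binds both TNF receptors and joins Ltb in the ligand of Ltbr. It was at 6.79, 7.63 and 6.74 in Tcf1-/-, against 6.12, 4.17 and 4.82 in Tcf1-/+, a difference of 2.01 (SE 0.55) from a Tcf1-/+ mean under background. The genotypes did not overlap for Lta, whereas its partner Ltb differed by 0.24 (SE 0.42) with overlap.

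Tnf itself was at 6.07, 6.36 and 5.90 on the Tcf1-/- arrays, against 5.90, 5.36 and 5.72 on the Tcf1-/+ arrays, a difference of 0.45 (SE 0.24). Fasl, the ligand of Fas, was apart by 0.68 (SE 0.27) without overlap on its brighter probe set, and the other gave -0.54, so no direction is given for Fasl. Tnfsf9, the ligand of Tnfrsf9, differed by -0.78 (SE 0.37) from a Tcf1-/- mean under background. Cd40lg, the ligand of Cd40, was at 5.65, 5.55 and 5.22 in Tcf1-/-, against 5.15, 5.14 and 5.03 in Tcf1-/+, all of the Tcf1-/+ arrays being under background. Tnfsf4, the ligand of Tnfrsf4, had both means under background. Tnfsf11, which encodes the RANK ligand, ranged from 7.19 to 10.39 in Tcf1-/- and from 5.70 to 9.23 in Tcf1-/+, with wide overlap. Lta and the brighter probe set of Tnfsf14 thus had genotypes that did not overlap, while those of their receptors Tnfrsf14, Ltbr, Tnfrsf1a and Tnfrsf1b did.

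**Figure D3:**
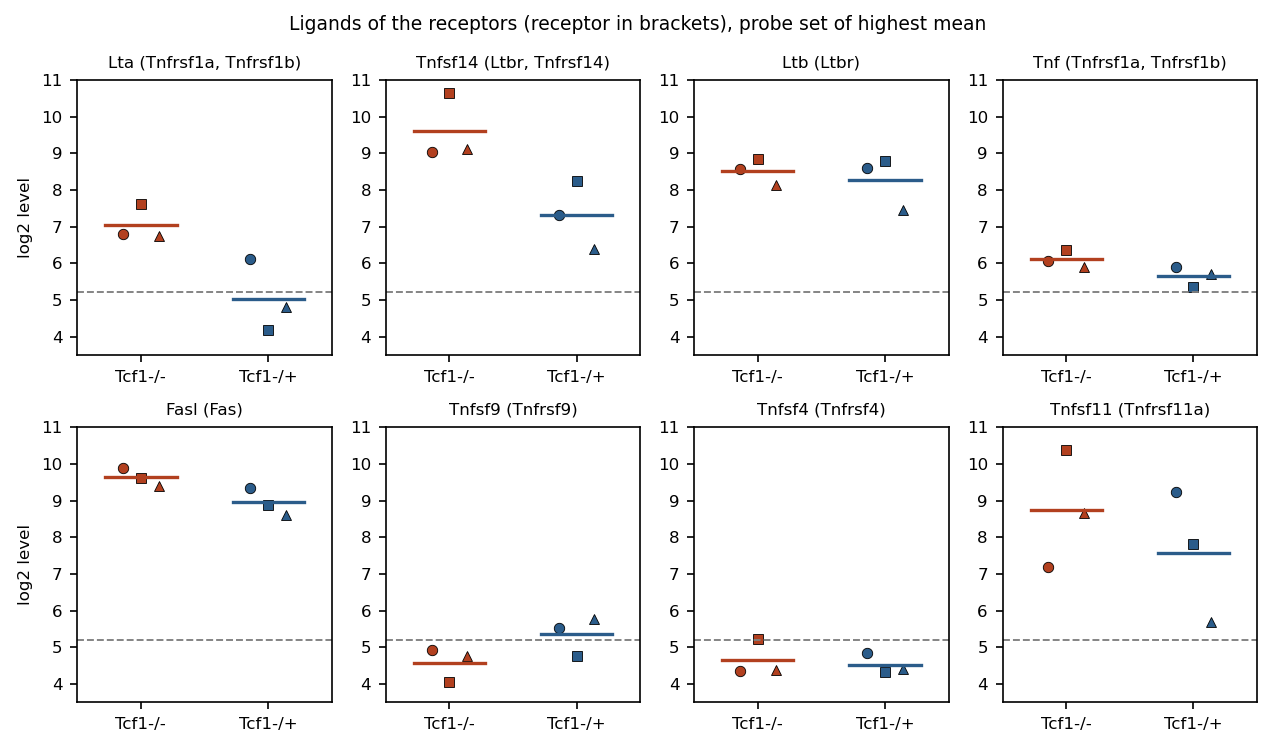
Log2 level of 8 ligand genes on each array (y axis), with Tcf1-/- at the left and Tcf1-/+ at the right, and the receptors each ligand binds in brackets. Points are arrays, short lines means and the dashed line the background level of 5.21. Tnfsf14, Lta and Fasl do not overlap between genotypes on the probe sets shown, and Tnfsf4 and Tnfsf9 lie around or under background.

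Adaptors and proximal signalling genes of these receptors showed no common direction. Of 24 measured members of a list of 26, 14 had a higher and 10 a lower Tcf1-/- mean, with a median difference of 0.06. limma called 0 at the adjusted threshold, and at an unadjusted p under 0.05 there were 3 higher and 3 lower, beside 3.38% and 3.4% of all genes. Fadd, the adaptor that joins death receptors to caspase 8, differed by 1.05 (SE 0.39), at 9.58, 9.60 and 8.81 in Tcf1-/-, against 8.97, 7.85 and 8.01 in Tcf1-/+, with overlap through replicate 3 of Tcf1-/- and replicate 1 of Tcf1-/+. The dimmer probe set of Fadd gave 0.20 (SE 0.45). Casp8 was level across arrays, with a difference of 0.02 (SE 0.21), and Cflar, which encodes the caspase 8 inhibitor FLIP, differed by 0.64 (SE 0.38), while 1 of its other 4 probe sets had a lower Tcf1-/- mean.

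Tank, a TRAF-binding regulator of NF-kB, differed by -0.90 (SE 0.25), Birc2, a ubiquitin ligase of TNF receptor complexes, by -1.09 (SE 0.37), and Tab1, a partner of the kinase TAK1, by -1.24 (SE 0.45), each with the Tcf1-/- arrays below the Tcf1-/+ arrays. The dimmer probe set of Tank gave -0.18 (SE 0.73) with overlap. The brightest probe set of Map3k7, which encodes TAK1, gave 0.77 (SE 0.25), but 2 of the others were lower in Tcf1-/-. Traf1, which binds Tnfrsf9 and Tnfrsf1b among others, differed by 0.29 (SE 0.56), with -1.56 from its second probe set. Traf4 gave 0.93 (SE 0.34) without overlap, and -1.51 on its second probe set. Traf2 differed by -0.36 (SE 0.23) with overlap.

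Of 12 measured NF-kB factors, inhibitors and kinases, 8 had a higher and 4 a lower Tcf1-/- mean, with a median difference of 0.17 and 0 called by limma. The 1 gene of the 12 with an unadjusted p under 0.05, beside 6.78% of all genes, was Rel, which encodes c-Rel, an NF-kB subunit of lymphoid cells. Rel was at 9.18, 9.47 and 9.52 on the Tcf1-/- arrays, against 7.91, 8.43 and 7.61 on the Tcf1-/+ arrays. The genotypes did not overlap, with a difference of 1.40 (SE 0.27) and an adjusted p of 0.446 from limma. Nfkbia, which encodes the inhibitor IkB-alpha and is itself a known NF-kB target, differed by 0.60 (SE 0.34), with a like sign on 3 of its 4 other probe sets and -0.06 on the remaining one. Nfkbiz differed by 1.23 (SE 0.69) and Nfkb2 by -0.20 (SE 0.20), both with overlap and with an opposite sign on another probe set. A further probe set of Nfkbiz gave 1.57 (SE 0.79), also with overlap. The differences of Rela and Relb, -0.73 (SE 0.99) and -0.11 (SE 0.52), were smaller than their errors.

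Other receptors of the superfamily, 17 measured, were split between 9 higher and 8 lower Tcf1-/- means with a median difference of 0.01 and 0 called by limma, while 2 were higher and 1 lower at an unadjusted p under 0.05, beside 3.38% and 3.4% of all genes. Tnfrsf21, which encodes the death-domain receptor DR6, was at 10.12, 9.53 and 9.60 in Tcf1-/-, against 8.03, 8.69 and 8.67 in Tcf1-/+, a difference of 1.28 (SE 0.29), and 1.69 on its other probe set. Cd40, a receptor of antigen-presenting cells, differed by 0.57 (SE 0.21), also without overlap. Its other probe sets gave 0.56 (SE 0.38) with overlap and 0.10 with both means under background. Tnfrsf21 and Cd40 were the 2 of 17 with all Tcf1-/- arrays above, beside 7.22% of all genes. Genotypes did not overlap for 2 with Tcf1-/- below, beside 4.94% of all genes. These were Tnfrsf13c, the BAFF receptor of B cells, at -1.06 (SE 0.29), and Cd27, a costimulatory receptor of T-lineage and progenitor cells, at -1.15 (SE 0.54). Cd27 was at 11.30, 9.62 and 11.59 on the Tcf1-/- arrays, against 11.79, 12.06 and 12.13 on the Tcf1-/+ arrays, with replicate 2 of Tcf1-/- the lowest. Without that array the difference of Cd27 was -0.55. Among these receptors, genotypes that did not overlap were thus found in both directions.

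**Figure D4:**
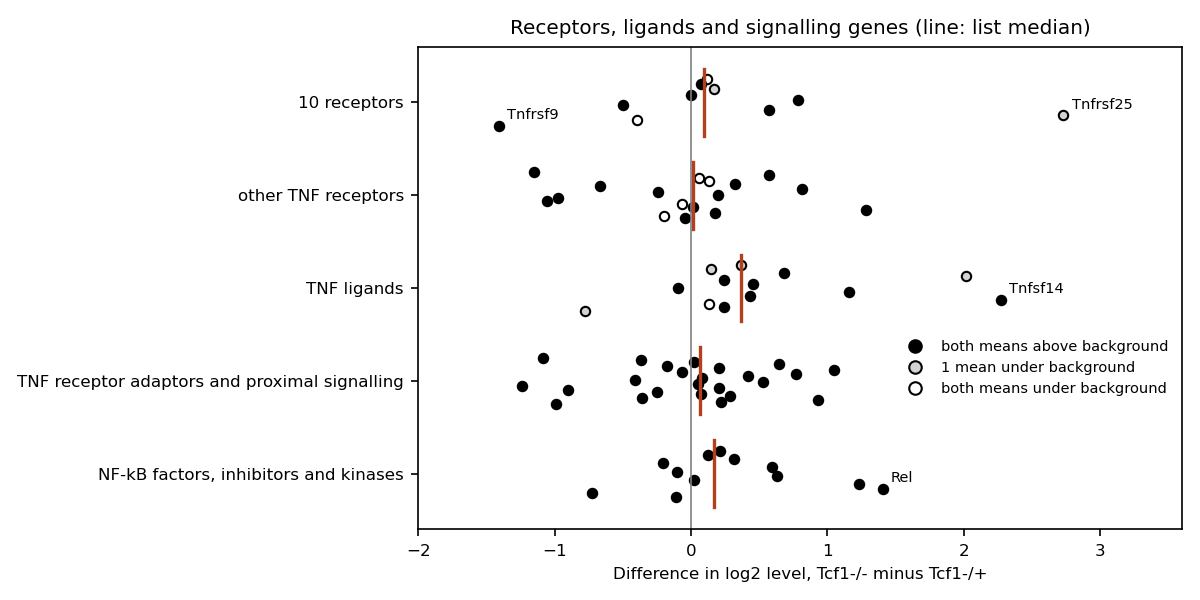
Difference in log2 level, Tcf1-/- minus Tcf1-/+ (x axis), of the 10 receptors and of each gene in 4 lists of receptors, ligands, adaptors and NF-kB genes (rows). Points are genes, filled by whether their means lie above background, and lines are list medians, which are 0.09 for the 10 receptors and 0.37 for the ligands. Tnfrsf25 at 2.73 is the point furthest right and Tnfrsf9 at -1.41 the one furthest left.

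Most markers of cell types known to carry Tnfrsf25 and Tnfrsf18 had a higher Tcf1-/- mean, with 0 called by limma. Of 9 genes of regulatory and activated T cells, 8 had a higher Tcf1-/- mean, and Ikzf2, which encodes the regulatory T-cell factor Helios, a lower one. Centred on each gene's mean, the list averaged 0.29 to 1.43 on the Tcf1-/- arrays and -1.17 to -0.36 on the Tcf1-/+ arrays. Foxp3, the defining factor of regulatory T cells, was at 5.77, 6.61 and 6.01 in Tcf1-/-, against 4.87, 5.63 and 4.66 in Tcf1-/+. The Tcf1-/+ mean of Foxp3, 5.05, was under background, so its difference has no well-measured size. Ctla4 had both means under background. Ikzf2 was at 9.85, 9.19 and 9.69 in Tcf1-/-, against 9.87, 10.63 and 9.85 in Tcf1-/+. Its difference was -0.54 (SE 0.32), opposite in sign to Foxp3. The genotypes nearly touched, with the highest Tcf1-/- array of Ikzf2 at 9.849 and the lowest Tcf1-/+ array at 9.853. Of 14 NK and innate lymphoid genes, 11 had a higher and 3 (Klrd1, Eomes and Tbx21) a lower Tcf1-/- mean, with list means of at least 0.32 in Tcf1-/- and at most -0.33 in Tcf1-/+. Il2rb is in both of these lists. Of 4 gamma delta T-cell genes, 3 had a higher and 1, Sox13, a lower Tcf1-/- mean, with list means of 0.17 to 1.28 in Tcf1-/- and -1.15 to -0.38 in Tcf1-/+. For the 10 receptors the same mean was -0.01 to 0.18 in Tcf1-/- and -0.21 to 0.00 in Tcf1-/+. Progenitor and gate markers, of which 7 of 10 had a lower Tcf1-/- mean, averaged -0.21 to -0.07 in Tcf1-/- and 0.07 to 0.18 in Tcf1-/+, and stromal markers 0.07 to 0.15 in Tcf1-/- and -0.25 to 0.04 in Tcf1-/+. The list means of myeloid, dendritic, B-lineage and erythroid markers overlapped between genotypes. limma called 0 genes of the regulatory and activated T-cell, NK and innate lymphoid, and gamma delta lists at the adjusted threshold, while 7, 7 and 3 of them were higher and 0, 1 and 0 lower in Tcf1-/- at an unadjusted p under 0.05, beside 3.38% and 3.4% of all genes. It also called 0 in the other 6 marker lists, where the unadjusted count was 1 higher and 2 lower for progenitor markers, 0 higher and 3 lower for dendritic markers and 0 for the rest. Flt3 is in both the progenitor and the dendritic list and counts among the lower genes of each. The part of such cells in the values of Tnfrsf25, Tnfrsf18 and the ligands was not tested.

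Within Tcf1-/-, replicate 1 had the highest Tnfrsf25 and Tnfrsf18 levels and the lowest mean of the regulatory and activated T-cell, NK and innate lymphoid, and gamma delta lists. Replicate 2 of Tcf1-/- had the lowest Tnfrsf25 level and the highest mean of regulatory and activated T-cell and of gamma delta markers, while replicate 3 was highest for NK and innate lymphoid markers. Within Tcf1-/+, replicate 2 was highest in Tnfrsf25, Tnfrsf18 and the regulatory and activated T-cell and NK and innate lymphoid lists, and lowest in the gamma delta list.

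**Figure D5:**
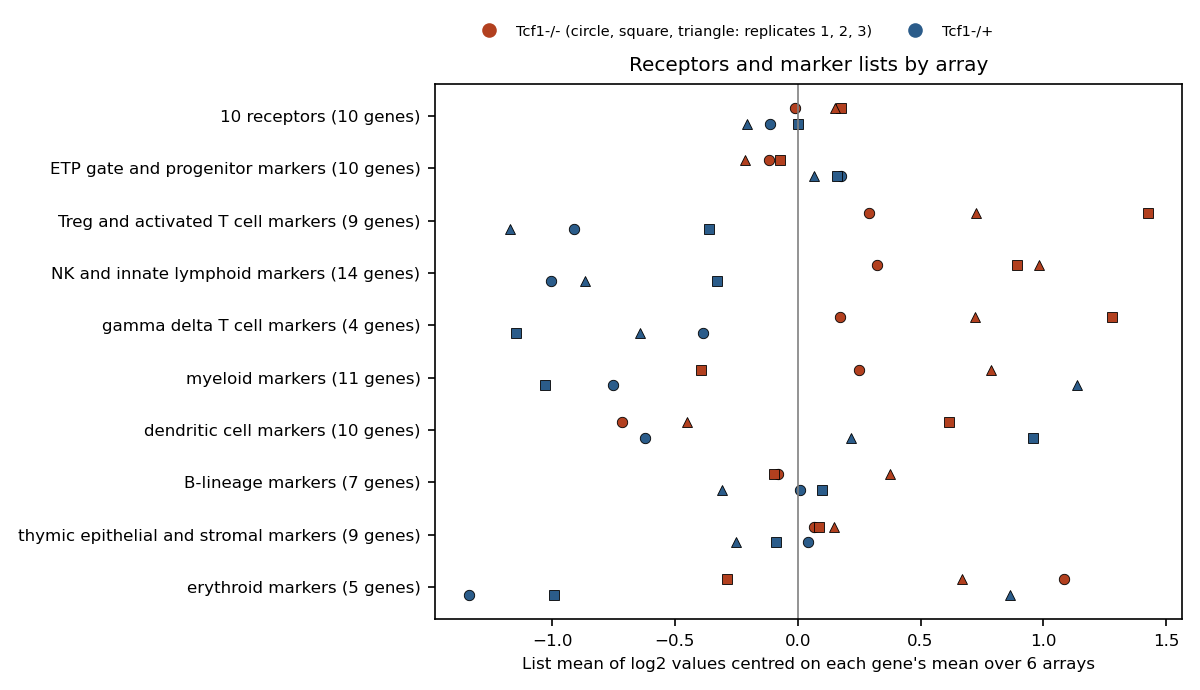
List mean of log2 values centred on each gene's mean over the 6 arrays (x axis) for the 10 receptors and for 9 marker lists (rows), by array. Tcf1-/- arrays are the upper and Tcf1-/+ arrays the lower points of a row. The genotypes are apart for regulatory and activated T-cell, NK and innate lymphoid, and gamma delta T-cell markers, and by less for progenitor and stromal markers. The 10 receptors lie between -0.21 and 0.18.

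The search for genes of like pattern covered Tnfrsf25, Tnfrsf9 and Tnfrsf18, the receptors of largest difference whose higher mean was above background. Among genes with a mean above background, the closest were taken by the root mean square difference of centred log2 values over the 6 arrays. For Tnfrsf25 they were Grb10 at 0.369, Ccnt1 at 0.431 and F2r at 0.505. For Tnfrsf9 they were Slc25a23 at 0.145, Ccp110 at 0.211 and Mta3 at 0.278, and for Tnfrsf18 4933431E20Rik at 0.127, Ggnbp2 at 0.137 and Bud23 at 0.138. With 6 arrays and a search among those of 18193 genes that had a mean above background, such neighbours are a description of these arrays.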

How the data were processed

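Per the labels' protocols, total RNA of small numbers of sorted cells was amplified, biotin-labelled and hybridized. The deposited table holds 1 log2 value per probe set and array, a scale inferred from the range of the values. The authors' summarization and normalization are not given in the sources used here. Values were used as deposited, after leaving out 64 control probe sets. Of 45037 probe sets tested, 34945 had 1 gene symbol, 932 several and 9160 none here. Probe sets with several were not used for names. Columns of values not used numbered 0.

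The genotype comparison used the lmFit and eBayes functions of limma 3.58.1 (R 4.3.3), two-sided, over all 6 arrays without covariates, with Benjamini-Hochberg adjustment over all tested probe sets and a threshold of 0.05. The fit was tested on simulated data. Exact permutation was not used. Arrays have no read depth, and their number limits the precision. P-values set each genotype difference against the spread between these arrays within a genotype. eBayes moderates that spread for each probe set toward a common value estimated from all tested probe sets.

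The receptors and lists were chosen with earlier results of these data known. Named genes are the 10 receptors, the 4 genes of smallest unadjusted p in each pathway list with a mean above background, a fixed set of ligands, adaptors and NF-kB genes, and up to 2 genes a marker list. Tnfsf4, Tnfsf11, Cd40lg, Traf4, Rela, Relb, Kit, Cd44, Il2ra, Ctla4, Foxp3, Ikzf2, Il2rb, Klrd1, Eomes, Tbx21, Sox13, Cd70, Tnfsf8, Tnfsf10, Tnfsf13b and the neighbours of Tnfrsf25 were named outside that rule, as ligands, subunits, gate or defining markers or by position, after their values were seen. Tnfrsf26, Tnfsf12, Tnfsf13, Tnfsf15, Tnfsf18, Traf3, Ripk1, Nfkb1 and Chuk lacked a probe set of their own in the annotation and were not analysed here, and neither was the targeted gene. Lists were described by counts, with no set test. The alternatives tried were quantile normalization, a replicate block, a filter on mean level, a floor at background, an intensity trend, array weights, the Y-linked level as a covariate, leaving out each array, other background levels and the mean of a gene's probe sets.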

Additional observations from a re-analysis of the deposited data

How the results depend on the processing

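Under all 14 alternatives to the genotype fit that were run, Tnfrsf25, Tnfrsf9, Tnfrsf18, Tnfrsf1b, Tnfrsf1a and, in the 13 that could be run for it, Tnfrsf4 kept the sign of their difference. Some of these could not turn a sign. The replicate block, the filter on mean level and the intensity trend change the error and leave the difference as it is. The mean of a gene's probe sets does the same where a gene has 1 probe set. The difference lay between 2.34 and 3.00 for Tnfrsf25, between -1.86 and -0.89 for Tnfrsf9 and between 0.52 and 1.16 for Tnfrsf18. The sign turned for Tnfrsf14 in 5 alternatives, for Tnfrsf11a and Ltbr in 2 each and for Fas in 1, all of them but quantile normalization for Tnfrsf14 with 1 array left out. For Tnfrsf4 the floor at background gave -0.06, since nearly all its values lay under that floor. limma called 0 probe sets, and so 0 receptors and 0 pathway genes, in every refit, and 2477 to 3487 probe sets had an unadjusted p under 0.05 when single arrays were left out. Without replicate 2 of Tcf1-/-, the differences of Cflar, Nfkbia and Tnfsf9 were 0.26, 0.35 and -0.51. Between 5 and 7 of the receptors had a higher Tcf1-/- mean. The filter on mean level dropped Fas and Tnfrsf4, so its count of 5 is over fewer receptors. With the replicate number as a block the count called was 0, with 3074 probe sets at an unadjusted p under 0.05. Same-numbered arrays of the genotypes had deviations that correlated at 0.03, 0.04 and 0.01, so the numbers were not taken to pair them. With background at the 75th percentile of the control probe sets, 4.13, both means of all 10 receptors lay above it, in place of 6, and with the mean of the array maxima, 5.51, it was 5.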
